A study of Mus musculus with 16 samples.

Results

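The 8 libraries of inguinal white adipose tissue from mice that received no antibody, out of 16 libraries in the series, were ordered by the state of their circadian clock genes. For each library an index was formed as log2(Dbp + 1) minus log2(Arntl + 1) on the deposited normalized counts, and the 4 libraries with the highest index were set against the 4 with the lowest, with diet as a covariate. All mice were C57BL6/J. The groups were control diet untreated, high-fat diet untreated, control diet with antibody and high-fat diet with antibody, with 4 libraries each. The antibody, AF1447 against PDGFcc (a growth factor ligand), was injected into the peritoneum of 6-week-old mice at 50 mg/kg in 100 µl every 2 days over 2 weeks. The labels give the age at treatment as 6 weeks for all 16 libraries, the untreated ones included. No other genotype or agent is named in the labels. The labels do not say at what hour tissue was taken, how long the diets lasted, whether untreated mice had a control injection or whether each library is a separate animal, so error estimates measure the spread between these libraries, which may be technical in part.

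The circadian clock is a transcription loop that runs in nearly every cell, adipocytes included. Arntl (also called Bmal1) pairs with Clock or Npas2 and switches on genes with E-box sequences, among them the repressors of the Per and Cry families, which then shut the pair down. The nuclear receptors Nr1d1 and Nr1d2 repress Arntl and the Ror receptors activate it. The PAR bZIP factors Dbp, Tef and Hlf carry the rhythm to output genes through D-box sequences, where Nfil3 competes with them as a repressor. Dbp and Arntl are known to peak at nearly opposite times of day, so their log ratio is often used to place a sample in the cycle. Since the hour of collection is not known, the libraries are called high-index and low-index below and not day or night.

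Promoter sequences are shown for Arntl, whose level entered the index, for 5 further clock genes and for Ppp1r3c, to show which clock elements lie near the start of genes described below. Sequences are from RefSeq (GRCm38.p6), read 5′ to 3′ on the gene's strand, and cover the 250 bases before an annotated start, cut short where an exon of the gene begins upstream of it. Capitals mark matches to the E-box CACGTG, to the D-box TTATGTAA or TTACGTAA, or to the core of the Ror and Nr1d binding element, AGGTCA, each searched on both strands. None of these strings contains another.
Arntl, chr7:113207215-113207464, plus strand: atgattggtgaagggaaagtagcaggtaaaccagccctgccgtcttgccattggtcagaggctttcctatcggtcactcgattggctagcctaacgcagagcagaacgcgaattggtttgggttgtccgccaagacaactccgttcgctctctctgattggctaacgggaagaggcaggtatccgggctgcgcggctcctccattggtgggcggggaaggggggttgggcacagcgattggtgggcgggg
Ciart, chr3:95882252-95882478, minus strand: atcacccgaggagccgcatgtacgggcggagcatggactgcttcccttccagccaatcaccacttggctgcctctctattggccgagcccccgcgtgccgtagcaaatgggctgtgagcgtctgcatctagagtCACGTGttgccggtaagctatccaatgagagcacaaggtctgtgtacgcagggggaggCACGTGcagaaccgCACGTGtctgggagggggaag
Bhlhe41, chr6:145865559-145865670, minus strand: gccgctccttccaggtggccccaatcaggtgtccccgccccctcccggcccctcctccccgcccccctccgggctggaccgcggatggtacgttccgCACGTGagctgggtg
Tef, chr15:81811164-81811413, plus strand: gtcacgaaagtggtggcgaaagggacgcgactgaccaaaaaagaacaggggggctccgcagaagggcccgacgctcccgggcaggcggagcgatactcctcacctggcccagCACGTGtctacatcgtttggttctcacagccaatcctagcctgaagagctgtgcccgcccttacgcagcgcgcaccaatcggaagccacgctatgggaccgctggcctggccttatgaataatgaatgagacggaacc
Nr1d2, chr14:18239128-18239356, minus strand: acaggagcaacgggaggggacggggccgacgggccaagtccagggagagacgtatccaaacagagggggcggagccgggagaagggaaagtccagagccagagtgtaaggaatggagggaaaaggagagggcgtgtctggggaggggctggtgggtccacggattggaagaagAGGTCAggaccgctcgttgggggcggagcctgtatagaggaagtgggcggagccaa
Per3, chr4:151044666-151044915, minus strand: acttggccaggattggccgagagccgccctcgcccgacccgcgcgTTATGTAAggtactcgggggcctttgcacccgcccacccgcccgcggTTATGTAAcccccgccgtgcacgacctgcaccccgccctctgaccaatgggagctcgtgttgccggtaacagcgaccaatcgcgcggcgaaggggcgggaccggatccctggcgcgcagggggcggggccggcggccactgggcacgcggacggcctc
Ppp1r3c, chr19:36736654-36736854, minus strand: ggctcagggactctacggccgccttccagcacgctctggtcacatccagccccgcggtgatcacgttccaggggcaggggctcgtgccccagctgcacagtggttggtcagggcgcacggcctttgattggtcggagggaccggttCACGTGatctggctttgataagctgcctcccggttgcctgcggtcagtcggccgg
Ciart held 3 E-boxes in this window, and Bhlhe41, Tef and Ppp1r3c held 1 each. Per3 held 2 D-boxes, both TTATGTAA, and Nr1d2 held 1 AGGTCA. In the window printed for Arntl none of these letters occurred, which says nothing of sites elsewhere. Of all 32536 promoters in the table, 6.04% held the E-box, 0.925% a D-box and 14% the AGGTCA core. Among the 20 clock genes examined here 17 had an entry, with 23 promoters between them (Per2 and Bhlhe40 were among those with none). Both these counts and those over all promoters are over the full 250 bases, without the cut at an exon. E-boxes stood in 6 of the 23 (26.1%), one of them in a second Tef promoter that is not printed because an exon of Tef holds its first base. D-boxes stood in 1 (4.35%) and the AGGTCA core in 4 (17.4%). A match is a string of letters and not an observed binding site, and no binding data entered here.

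The index ran from 1.28 to 4.31 in the untreated libraries. Its values in the high-index group were 4.31 in control diet replicate 3, 4.27 in control diet replicate 4, 3.92 in high-fat replicate 1 and 2.77 in high-fat replicate 2. The low-index group held 2.48 in control diet replicate 2, 2.26 in high-fat replicate 4, 1.71 in high-fat replicate 3 and 1.28 in control diet replicate 1. Each group thus contained 2 libraries of each diet, and the groups differed by 1.89 in their mean index. The groups lay close at the split: the gap between high-fat replicate 2 and control diet replicate 2 was 0.29, whereas high-fat replicate 2 lay 1.15 below the next high-index library. The 8 antibody libraries, which took no part in the split, had indices of 4.42 to 6.38, all above every untreated library.

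**Figure D1:**
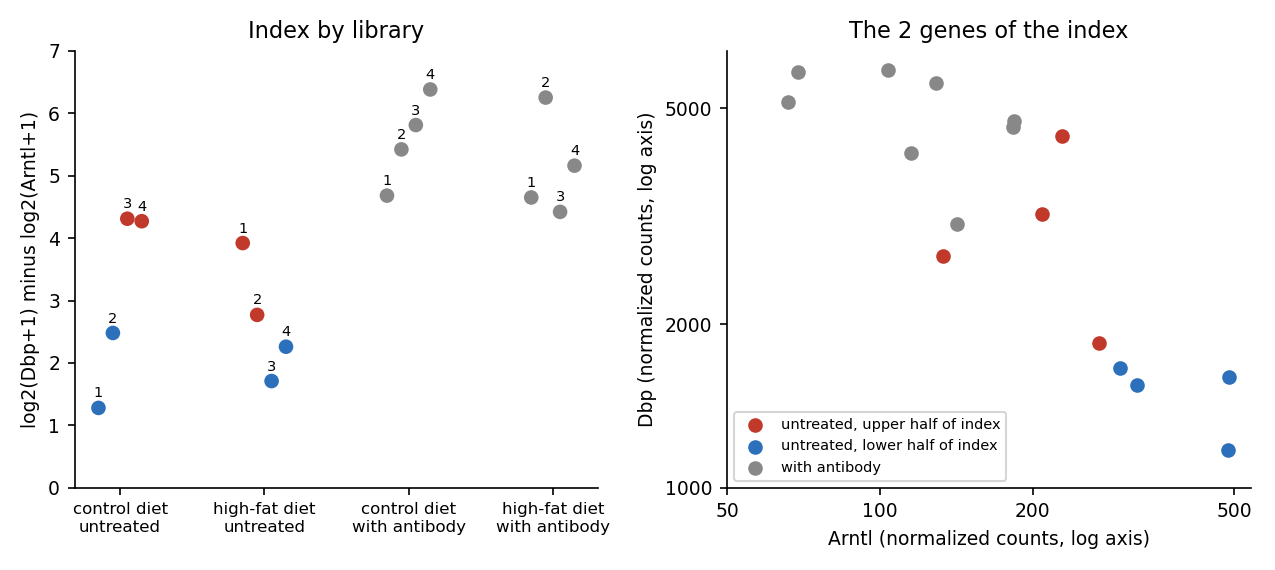
Left, the index log2(Dbp + 1) minus log2(Arntl + 1) of each of the 16 libraries by group, with replicate numbers beside the points; red and blue mark the 4 highest and 4 lowest of the untreated libraries and grey the antibody libraries. Right, Dbp against Arntl in normalized counts on log axes; the untreated libraries range from 1.28 to 4.31 in index and all antibody libraries lie above 4.31.

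High-fat replicate 2 also stood apart in its muscle transcripts. The 15 skeletal muscle markers summed to 674041 normalized counts there and to 1388 to 44158 in the other 7 untreated libraries. Their part in the results below was not tested, and the values that moved most without this library are given both ways. The deposited values are linear normalized counts with column totals of 24.02 to 28.15 in units of 1e6, and the read depth behind them is unknown. Across the 8 untreated libraries the lowest correlation of log2 values, 0.900, was between this library and control diet replicate 4. Fat defining genes were present throughout: the lipolysis list, which holds Plin1, Fabp4 and Lipe, summed to between 510348 and 709199 normalized counts in every untreated library.

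Because the groups were chosen by 2 measured genes, every gene of this contrast is described without a test. A gene was counted when all 4 values of one group lay beyond all 4 of the other, and differences are log2(value + 1), high-index minus low-index, with the SE of the fit with diet. Of 14189 genes examined, 253 (1.78%) were higher without overlap in the high-index libraries and 249 (1.75%) lower, 502 (3.54%) in all. Any split of 4 against 4 libraries separates some genes, and how many another split would separate was not tested. A gene without overlap is therefore not shown to follow the clock. After quantile normalization of the same values the split was 204 higher and 346 lower. With a difference of at least 2-fold as well, 18 genes (0.127%) were higher and 5 (0.0352%) lower, 23 (0.162%) in all. Among the 20 clock genes 7 did not overlap, 6 higher and 1 lower. Without Dbp and Arntl, which define the index, 5 of 18 did not overlap (27.8%), all higher: the repressors Nr1d2, Ciart and Bhlhe41 and the output factors Tef and Hlf. Within each diet taken alone, 2 libraries against 2, 935 genes (6.59%) were higher and 1155 (8.14%) lower in both diets without overlap. That held for 12 of the 18 clock genes, 11 higher and 1 lower. Dbp and Arntl belong to the same loop as these genes, so the shares describe the split and support nothing beyond it. Separation is easier with 7 libraries than with 8 by construction: 502 became 680 to 1963 genes when 1 library was left out, with 1963 without control diet replicate 2, 1751 without high-fat replicate 2, 985 without control diet replicate 4, 892 without high-fat replicate 1 and 770 without control diet replicate 1.

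Among the activators, Arntl itself was 133, 229, 209 and 270 normalized counts in the high-index libraries, given throughout in the order control diet replicates 3 and 4, then high-fat replicates 1 and 2. In the low-index libraries, in the order control diet replicates 1 and 2, then high-fat replicates 3 and 4, it was 485, 297, 487 and 322. The difference was -0.92 ± 0.24, with no overlap, and is a consequence of the rule. Npas2, which can stand in for Clock as the partner of Arntl, followed it: 54, 104, 90 and 88 against 219, 149, 154 and 94. Its groups overlapped through high-fat replicate 4 at 94, and the difference was -0.84 ± 0.29. Within each diet alone both high-index libraries were lower. Clock, the usual partner, differed by -0.05 ± 0.09, with 2237, 1767, 1964 and 1971 against 1874, 2125, 2139 and 2077. Over the 5 activators other than Arntl the median was -0.05, and 0 separated.

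The Ror receptors, activators of Arntl, differed in sign. Rora differed by 0.35 ± 0.17 with overlap and was higher in both high-index libraries within each diet, with its top value of 2294 in control diet replicate 3. Rorb, at 23 to 69 normalized counts, differed by -0.79 ± 0.30 with overlap.

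Every one of the 10 repressors had a positive difference, with a median of 0.41, beside 0.005 over all genes. Ciart, a repressor of the Arntl and Clock pair, differed most. It was 223, 265, 161 and 86 normalized counts in the high-index libraries and 37, 35, 70 and 47 in the low-index ones, a difference of 1.89 ± 0.37 or 3.70-fold. The lowest high-index value, 86 in high-fat replicate 2, was also the nearest to the other group, as that library was in the index. Bhlhe41 (Dec2), which competes for E-boxes, was 1039, 1461, 1062 and 694 against 303, 489, 384 and 401, a difference of 1.40 ± 0.22. Its groups did not overlap. The related Bhlhe40 (Dec1) was 5950, 5888, 3020 and 1529 against 1070, 1995, 563 and 1476, a difference of 1.63 ± 0.37. Bhlhe40 overlapped only because the 1529 of high-fat replicate 2 lay below the 1995 of control diet replicate 2. When high-fat replicate 2 was left out, 4 of the 10 repressors did not overlap and their median was 0.44, beside 12.3% of all genes without overlap.

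Nr1d2 (Rev-erb beta) differed little in size and yet did not overlap. It was 2958, 2619, 3085 and 2700 normalized counts at high index and 1943, 2352, 2487 and 2307 at low index, a difference of 0.32 ± 0.09. Its partner Nr1d1 (Rev-erb alpha) overlapped widely, with 5794, 8898, 9312 and 7054 against 5511, 8946, 7156 and 4029 and a difference of 0.31 ± 0.26. Nr1d1 shares exon sequence with Thra on the opposite strand, and the labels do not say whether the counting used strand.

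The period genes were all higher on average, with overlap in each. Per3 was 1689, 1513, 2280 and 2225 against 1176, 1058, 1412 and 1870 normalized counts, a difference of 0.49 ± 0.10. High-fat libraries had more Per3 than control libraries in both groups, and within each diet the high-index libraries were higher. Per2 was 1122, 718, 916 and 991 against 413, 388, 667 and 1094, a difference of 0.66 ± 0.25. High-fat replicate 4, at 1094, was the low-index library that reached into the other group. Per1 differed by 0.29 ± 0.11, Cry2 by 0.23 ± 0.07 and Cry1 by 0.16 ± 0.17, and the groups of each overlapped.

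Of the 4 output factors, 3 did not overlap, Dbp among them. The median of the 3 other than Dbp was 0.63. Hlf was 924, 888, 885 and 574 normalized counts in the high-index libraries and 271, 293, 341 and 512 in the low-index ones, a difference of 1.22 ± 0.23. Tef was 6454, 5733, 6389 and 6304 against 3245, 3538, 4498 and 4987, a difference of 0.63 ± 0.11. For Tef the high-index values lay within a narrow band whichever the diet, while the low-index values of the high-fat libraries were above those of the control libraries. Dbp, by which the groups were chosen, was 2673, 4439, 3191 and 1849 against 1176, 1660, 1601 and 1549, a difference of 0.96 ± 0.25. Dbp shares exon sequence with Sphk2 on the opposite strand. Nfil3, the repressor at the same D-boxes, differed by -0.02 ± 0.22, with 369 in control diet replicate 3 and 179 to 281 elsewhere.

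**Figure D2:**
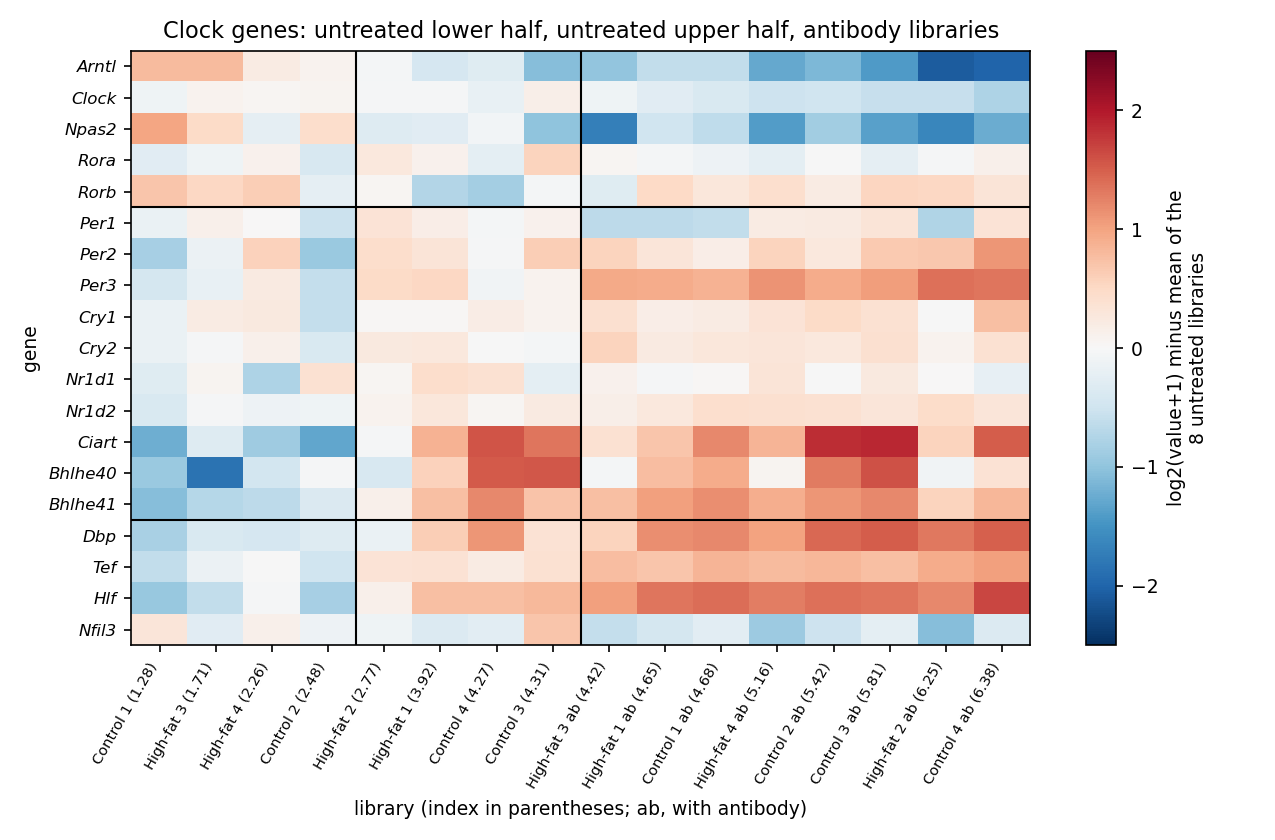
Heat map of the clock genes (rows, grouped as activators, repressors and PAR bZIP factors) in the 16 libraries (columns, ordered by index within the low-index, high-index and antibody blocks); colour is log2(value + 1) minus the gene's mean over the 8 untreated libraries. Ciart, Bhlhe41, Tef and Hlf are mostly blue in the low-index and mostly red in the high-index block, and Arntl the reverse.

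Outside the clock lists, Ppp1r3c and Hk2 were among the 10 genes with the largest positive differences without overlap. Ppp1r3c, a glycogen-targeting subunit of protein phosphatase 1, was 3532, 2612, 1316 and 2323 normalized counts at high index and 831, 1169, 997 and 875 at low index, a difference of 1.26 ± 0.23. Hk2, the insulin-responsive hexokinase that commits glucose to use in the cell, was 11863, 9339, 4789 and 4496 against 2890, 3431, 2984 and 3503, a difference of 1.13 ± 0.24. For Hk2 the control diet high-index libraries were far above the high-fat ones, while the low-index libraries lay between 2890 and 3503 on either diet.

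Other genes of no clock list were higher without overlap. Ankrd9 was 325, 183, 106 and 353 against 57, 78, 67 and 76 normalized counts, a difference of 1.65 ± 0.37. Rcor2, a subunit of a chromatin corepressor complex, was 284, 286, 333 and 294 against 91, 91, 154 and 180, a difference of 1.27 ± 0.16. Its high-index values all lay between 284 and 333. Rbm38, an RNA-binding protein, was 418, 644, 472 and 469 against 267, 272, 253 and 196, a difference of 1.01 ± 0.15. Npnt, an extracellular matrix ligand, differed by 1.06 ± 0.36, or 0.68 without high-fat replicate 2, and Clic5, a chloride channel family member, by 0.94 ± 0.18. Plekhh3 differed by 0.99 ± 0.18 and shares exon sequence with Cntnap1 on the opposite strand. Smtnl2, related to the smoothelins of muscle, differed by 1.46 ± 0.76, but 1 value, 1713, was that of high-fat replicate 2, the library rich in muscle transcripts, and its other high-index values of 118 to 145 lay just above the low-index range of 63 to 116. Without high-fat replicate 2 the Smtnl2 difference was 0.52. S100b, a calcium-binding protein of nerve sheath cells that adipocytes also make, was 520, 271, 439 and 205 against 190, 183, 135 and 200, a difference of 0.93 ± 0.29.

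Genes lower at high index without overlap had varied roles. Tnfaip6 (TSG-6), an inflammation-induced binder of hyaluronan, was 65, 67, 55 and 66 against 107, 93, 171 and 397 normalized counts, a difference of -1.34 ± 0.36. Its high-index values were nearly equal, and its low-index values ran from 93 to 397. Cd14, the lipopolysaccharide co-receptor of macrophages, was 371, 663, 464 and 601 against 663, 832, 1244 and 1207, a difference of -0.90 ± 0.21. Before rounding its groups did not overlap, with 663 printed for a library of each group. The interferon-inducible DNA sensors Ifi213 and Ifi209 differed by -0.94 ± 0.21 and -0.91 ± 0.19. For Ifi209 the values were 251, 260, 276 and 280 against 532, 299, 686 and 588. Adamts4, a protease that cleaves aggrecan, differed by -0.97 ± 0.33, or -0.58 without control diet replicate 3, and shares exon sequence with another gene on the opposite strand. The remaining genes of this group were Cldn10, a tight junction protein, at -0.99 ± 0.26, Hrh1, a histamine receptor, at -0.86 ± 0.23, Mal, a myelin protein, at -0.85 ± 0.21, and Epha3, an ephrin receptor, at -0.83 ± 0.27.

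Mup10, a major urinary protein, was 206, 680, 503 and 484 against 909, 1140, 1114 and 973 normalized counts, a difference of -1.26 ± 0.32. Mup6 and Mup11, also lower without overlap, are near-identical copies of the same family, so the counting of reads among them is uncertain. They fell below the level for naming and were picked out after their values were seen.

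**Figure D3:**
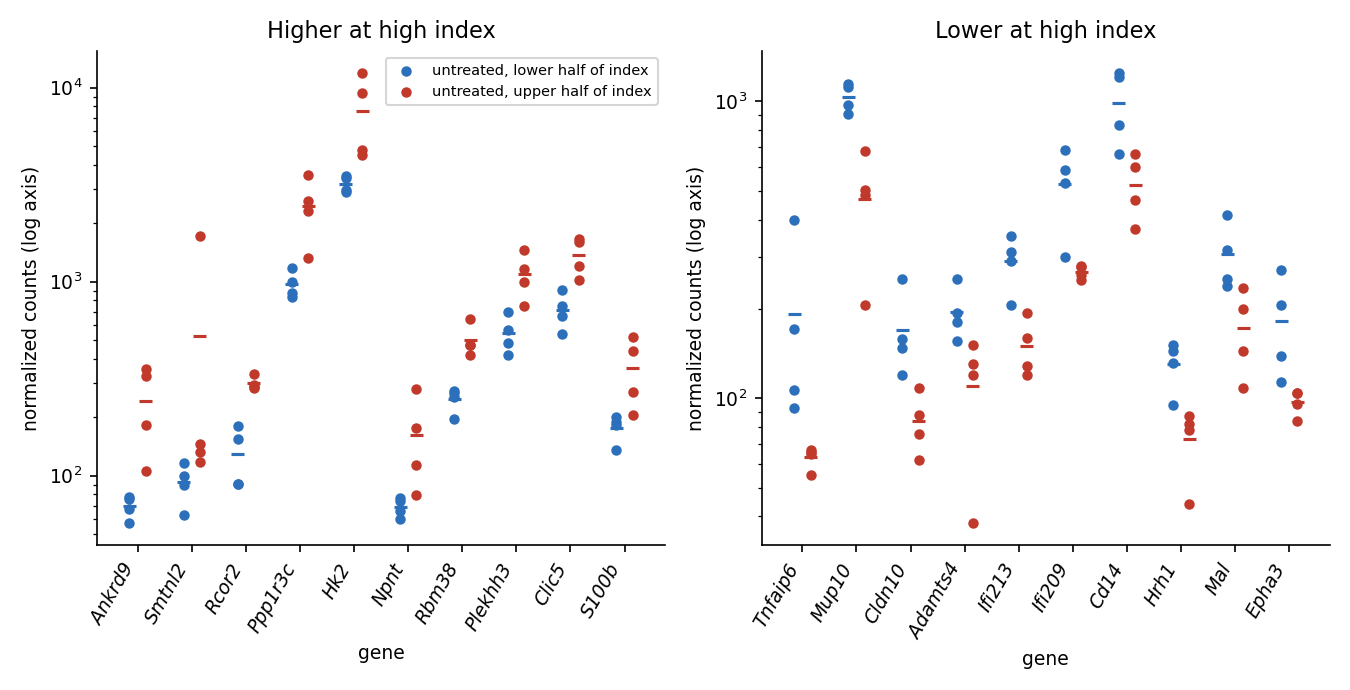
Normalized counts (log axes) of the 10 non-clock genes with the largest positive (left) and the 10 with the largest negative (right) difference among those without overlap; blue points are the 4 low-index and red points the 4 high-index untreated libraries, and bars are means. The groups are separate by the rule that chose the genes; Smtnl2 shows 1 red point, at 1713, far above the rest.

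Known rhythmic and clock-regulating genes outside the loop differed little in the median. Of 25 genes described as rhythmic in many tissues, 2 did not overlap, both higher, beside 1.78% of all genes higher without overlap. The median difference of the 25 was 0.15. One was Lpin1, the lipin phosphatidate phosphatase, at 22520, 13934, 16817 and 14404 against 9027, 11456, 12421 and 13665 normalized counts, a difference of 0.53 ± 0.19, or 0.34 without control diet replicate 3. The other was Ppard, a lipid-sensing nuclear receptor, at 0.16 ± 0.07. Pdk4, the kinase that blocks pyruvate oxidation, differed by 1.03 ± 0.51 with overlap, from 4657 to 21310 against 2818 to 10238. Klf9 and Klf10, Krüppel-like factors known as clock outputs, differed by 0.41 ± 0.16 and 0.46 ± 0.13, also with overlap. None of the 10 clock protein modifiers separated, and their median was 0.03. Among them Usp2, a deubiquitinase whose expression is strongly rhythmic, was 478, 598, 385 and 868 against 201, 267, 323 and 446, a difference of 0.90 ± 0.27.

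Genes of fat synthesis and oxidation were higher on average at high index, but the libraries overlapped. Of 22 fatty acid synthesis genes, 21 had a positive difference with a median of 0.64, and 0 separated. High-fat libraries lay below control libraries: Fasn, fatty acid synthase, was 837167, 752942, 196660 and 101008 normalized counts against 278930, 470473, 95628 and 64047. Within each diet both high-index libraries had more Fasn, and the same order held for 6 of the 22 genes, namely Fasn, Acly, Scd1, Slc2a4, Pgd and Pnpla3. Over all genes examined 6.59% were higher within each diet. Among lipolysis genes G0s2, the inhibitor of adipose triglyceride lipase, did separate, at 6347, 6877, 6369 and 5216 against 2950, 4385, 4315 and 4330, a difference of 0.65 ± 0.15. The lipolysis list as a whole had a median of 0.17. In the adipokine list Retn (resistin) separated at the small difference of -0.16 ± 0.10.

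Mitochondrial and thermogenic genes had a like pattern. All 25 oxidative phosphorylation genes had a positive difference with a median of 0.47, and 18 of 19 fatty acid oxidation genes with a median of 0.57, while 0 of either list separated. The 15 brown and beige adipocyte markers were all positive, with a median of 1.73, and 0 separated. Within each diet 0 of the 25 oxidative phosphorylation genes were higher in both high-index libraries. The same count was 3 of the 19 fatty acid oxidation genes and 3 of the 15 brown and beige markers. Over all genes examined it was 6.59%. Ucp1, the uncoupling protein of brown fat, was 44771, 14599, 6053 and 15 normalized counts against 207, 4843, 159 and 30. The single value that broke the order was high-fat replicate 2, at 15 the lowest of all 8 libraries. Without that library 1751 genes (12.3%) did not overlap, 798 higher and 953 lower, and they took in 10 of the 15 brown and beige markers and 6 of the 19 fatty acid oxidation genes. The medians were then 2.36 for the brown and beige markers, 0.84 for fatty acid oxidation and 0.64 for oxidative phosphorylation. Of the cholesterol synthesis genes 16 of 18 were positive, with a median of 0.46, and 5 were higher within each diet.

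Markers of other cell types also differed with the index. In bulk tissue fewer cells of a type and less RNA per cell cannot be told apart. Of 16 adipose progenitor markers 14 were lower at high index, with a median of -0.46, and 8 were lower within each diet, among them Pdgfra, Dpp4, Cd34 and Ly6a. Over all genes examined 8.14% were lower within each diet. Dpp4, which marks early progenitors, was 1334, 1496, 1528 and 1863 against 3561, 1738, 3106 and 3349 normalized counts, a difference of -0.88 ± 0.20. Its groups overlapped because control diet replicate 2, at 1738, lay below high-fat replicate 2, at 1863. Of 15 macrophage markers 14 were lower, with a median of -0.53, and 8 were lower within each diet. Fcgr1, the high-affinity IgG receptor, was 183, 212, 213 and 363 against 388, 247, 908 and 685, a difference of -1.08 ± 0.26. The macrophage markers summed to 37334 to 68625 at high index and 49595 to 90225 at low index. In neither list did a single marker separate over all 8 libraries. When high-fat replicate 2 was left out, 6 of 16 progenitor and 5 of 15 macrophage markers were lower without overlap, beside 953 of all 14189 genes. The part of these cells in the differences above was not tested.

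Nerve markers were lower at high index too, and muscle markers were lower in the median but not within each diet. Of 9 Schwann cell and nerve markers 8 were lower, with a median of -0.66, and 6 were lower within each diet, beside 8.14% of all genes. Prx, periaxin of myelinating Schwann cells, was 273, 430, 494 and 712 against 868, 652, 742 and 1243 normalized counts, a difference of -0.91 ± 0.23. Its groups overlapped through high-fat replicate 2, at 712. S100b, on the same list, went the other way. The median of the 15 skeletal muscle markers was -1.83, with sums of 1388 to 674041 at high index and 24509 to 44158 at low index. Within each diet 0 of the 15 were lower, beside 8.14% of all genes. All 3 high-index libraries other than high-fat replicate 2 had smaller sums than any low-index library, at 1388, 8631 and 9767. Of these markers 1, Pvalb, was at 0 in a library, control diet replicate 4. The differences of Ckm and Ttn, muscle creatine kinase and titin, were -2.40 ± 2.36 and -2.18 ± 2.25. Without control diet replicate 4 they turned to 0.12 and 0.17. Without high-fat replicate 2 the muscle median was -3.44 and 12 of 15 were lower without overlap, beside 953 of all 14189 genes. Endothelial markers showed a median of 0.01, or -0.02 after quantile normalization, pericyte and smooth muscle markers 0.18, lymphocyte markers -0.07 and blood genes 0.16, with 0 separated in each. Of 12 mammary and skin epithelium markers only Krt19 was in the table, at 21 to 67 normalized counts. The 14 proliferation genes had a median of -0.23.

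Stress and immediate early genes, which respond to handling and hormones, were lower in the median at high index. The 21 immediate early genes had a median of -0.48, and 0 separated. Fosb, an AP-1 subunit, was 36, 15, 30 and 44 against 37, 23, 646 and 2190 normalized counts, a difference of -2.66 ± 0.92 that came from high-fat replicates 3 and 4. Nr4a1, an orphan receptor induced within minutes, was 115, 110, 137 and 405 against 114, 166, 458 and 1085. The glucocorticoid-responsive genes had a median of -0.33, and Mt2, a metallothionein, reached 6214 and 4930 in the same pair of high-fat libraries against 333 to 1794 in the other 6. Heat shock genes had a median of -0.08. The part of these genes in the contrast was not tested.

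**Figure D4:**
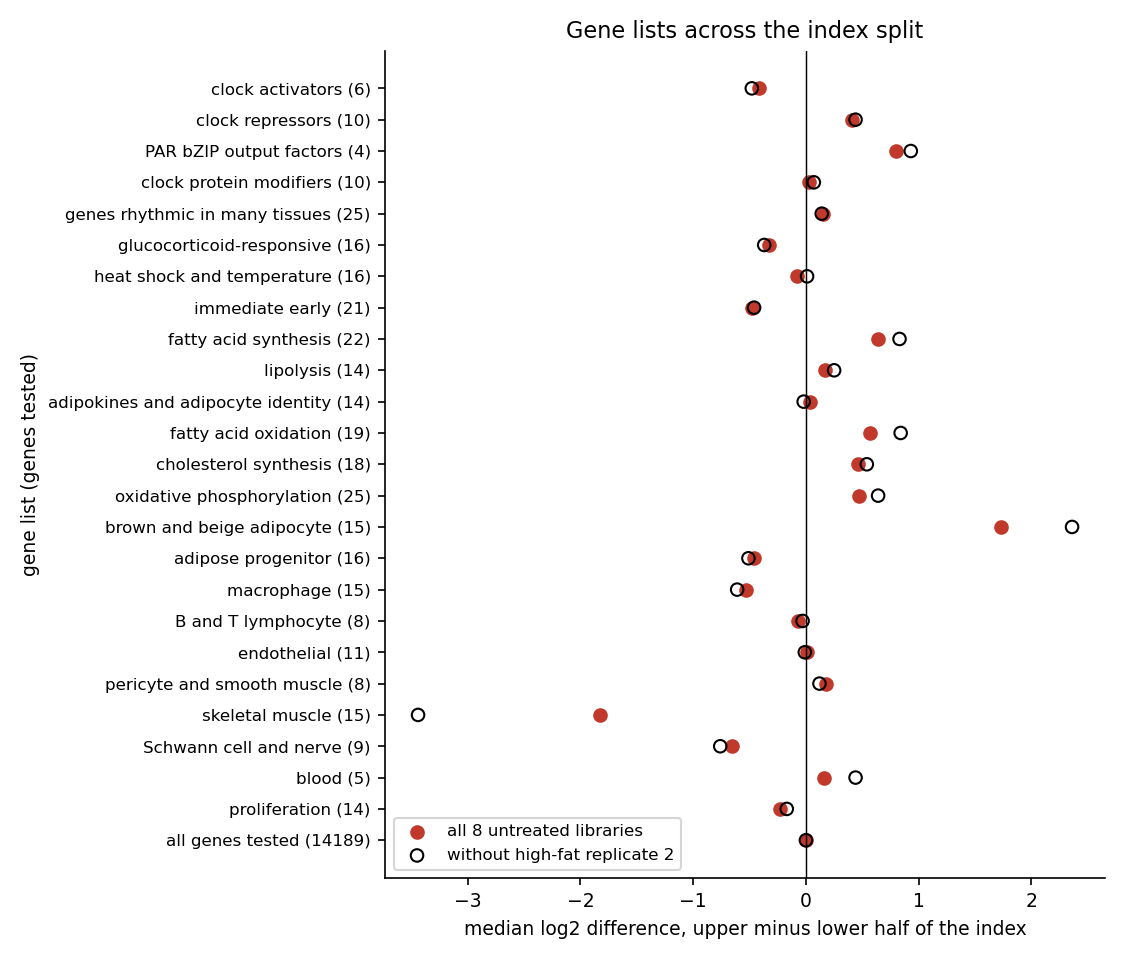
Median log2 difference, high-index minus low-index, of each gene list (number of genes tested in parentheses); filled points use all 8 untreated libraries and open points leave out high-fat replicate 2. The activator and PAR bZIP lists include Arntl and Dbp, which define the groups. Clock repressors (0.41) are at 0.44 when that library is left out, while the skeletal muscle median goes from -1.83 to -3.44.

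The 8 antibody libraries were not used by the rule, so the same genes could be tested there. There the index was kept as a number, and the slope of log2(value + 1) per unit of the index was fitted with limma with diet as a covariate and adjusted by Benjamini and Hochberg over 14189 genes. No gene passed an adjusted p of 0.05 (0 genes, 0%). At an unadjusted p under 0.05 there were 248 genes with a positive slope (1.75%) and 140 with a negative slope (0.987%), 388 in all (2.73%). For Dbp and Arntl, which make up the index, the slopes of 0.25 ± 0.08 and -0.75 ± 0.10 are descriptions only. The index had an SD of 0.75 over these 8 libraries. Without high-fat antibody replicate 3, whose brown and beige markers had the lowest sum of the 8 at 3378, 11 genes passed, 2 with a positive and 9 with a negative slope. One was Arntl, which makes up the index, so its pass is no test. The other 10 were the brown and beige markers Ucp1, Elovl3, Gk and Slc27a2 together with Acot11, Aspg, Chchd10, Gm10032, Ighm and Timp4, named after their values were seen. Leaving out any other antibody library gave 0 genes. After Arntl the smallest p belonged to Hba-a2, an alpha globin gene, with a slope of 0.54 ± 0.08 (limma, unadjusted p = 9.536e-05, adjusted p = 0.677). Of the 5 blood genes 4 had positive slopes at an unadjusted p under 0.05, and the list's sum ran from 11084 to 20652 normalized counts in these libraries.

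Of the 18 other clock genes 4 had an unadjusted p under 0.05 (22.2%), beside 2.73% of all genes, and none passed after adjustment. Per3 had the smallest, with a slope of 0.26 ± 0.05 (limma, unadjusted p = 0.000492, adjusted p = 1). In the antibody libraries Per3 lay between 2939 and 4163 normalized counts, all above the highest untreated value of 2280. Clock had a slope of -0.23 ± 0.05 (unadjusted p = 0.001638, adjusted p = 1), beside an untreated slope of -0.01 ± 0.04. Per2 had a slope of 0.32 ± 0.10 (unadjusted p = 0.01232, adjusted p = 1), close to its untreated slope of 0.34 ± 0.11. Bhlhe41 went the other way from the untreated libraries, at -0.17 ± 0.07 (unadjusted p = 0.03754, adjusted p = 1), against 0.69 ± 0.06 without antibody. The difference between the slopes of the 2 sets was not tested. A unit of the index is also made up differently in each set. Untreated, Dbp and Arntl had slopes of 0.51 and -0.49, and with antibody 0.25 and -0.75.

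Ciart, Hlf and Tef, which did not overlap in the untreated libraries, had smaller slopes among the antibody libraries. They are singled out here for that separation, so their slopes in the 2 sets are not on equal terms. Ciart had a slope of 0.90 ± 0.16 without antibody and 0.11 ± 0.13 with it (limma, unadjusted p = 0.4246, adjusted p = 1). For Hlf the slopes were 0.62 ± 0.07 and 0.08 ± 0.07, and for Tef 0.30 ± 0.05 and 0.10 ± 0.05. Both stood at another level there: the 8 antibody libraries held 1070 to 1675 normalized counts of Hlf and 8091 to 10139 of Tef, all above every untreated library. Outside the clock, the slopes were -0.11 ± 0.07 for Hk2, -0.11 ± 0.08 for Ppp1r3c, 0.06 ± 0.21 for Rcor2 and -0.04 ± 0.15 for Ankrd9, each with an unadjusted p above 0.05 and an adjusted p of 1. Of the 20 genes outside the clock lists shown by library above, 2 had an unadjusted p under 0.05, beside 2.73% of all genes. Adamts4 kept its direction at -0.39 ± 0.12 (unadjusted p = 0.01212, adjusted p = 1), and Cd14 turned to 0.30 ± 0.13 (unadjusted p = 0.04619, adjusted p = 1).

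**Figure D5:**
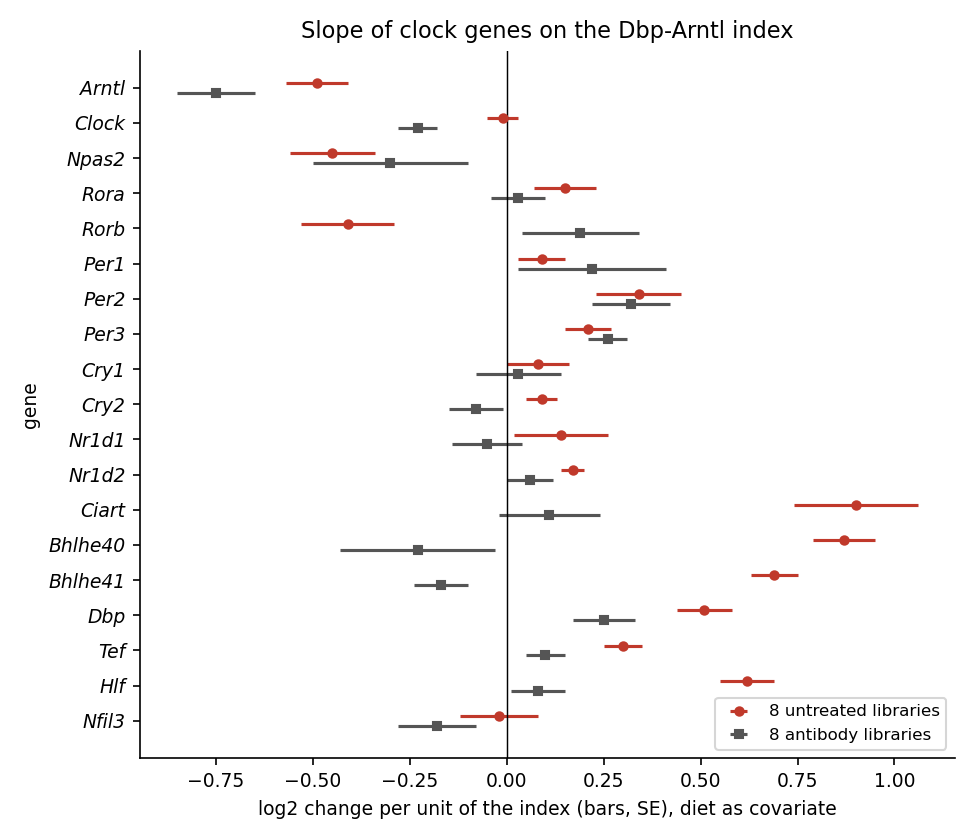
Slope of clock genes, in log2 change per unit of the index, in the 8 untreated (red) and the 8 antibody libraries (grey); bars are SE and diet is a covariate. Per2 and Per3 have like slopes in both sets, at 0.34 and 0.32 and at 0.21 and 0.26, whereas Ciart has 0.90 and 0.11 and Hlf 0.62 and 0.08. The shares of Dbp and Arntl in a unit of the index differ between the sets.

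The sign of the slope in the antibody libraries matched the sign of the untreated difference for 13 of the 18 other clock genes (72.2%). Over all 14189 genes it matched for 5679 (40.0%), and for the 500 genes without overlap other than Dbp and Arntl it matched for 145 (29.0%). Of the 23 genes without overlap and at least 2-fold it matched for 5 (21.7%). The 2 sets share no library, and they differ in antibody treatment, in the range of the index and in muscle transcripts, so these cannot be told apart. In the antibody set the skeletal muscle markers went with the index, with a median slope of 1.59, where the untreated median difference was -1.83. Of these 15 markers 4 had a positive slope at an unadjusted p under 0.05 (limma), beside 1.75% of all genes. Of the 6 fat metabolism lists 4 had a median slope of the other sign, at -0.09 for fatty acid synthesis, -0.08 for fatty acid oxidation, -0.09 for oxidative phosphorylation and -0.02 for cholesterol synthesis. The lipolysis and adipokine lists were positive in both sets, with median slopes of 0.04 and 0.09 and untreated median differences of 0.17 and 0.04. Macrophage and progenitor markers had medians of 0.02 and 0.04, and 0 of their genes passed the adjusted threshold.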

How the data were processed

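Poly-A RNA of 16 inguinal fat libraries had been sequenced with a stranded kit, per the labels' protocols. The submitters' processing notes name STAR 2.7.0e, fastp 0.20.1, limma 3.42.2 and Subread 1.6.2 beside featureCounts, with the builds mm10 and GRCm38. The authors deposited a linear signal per gene, named normalized counts, the scaling of which is not given in the sources used here. Its values are not whole numbers and no whole reads could be recovered, so no count model was run and no counting intervals are given. 255 values were 0, and 0 columns were unmapped.

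The plan had assumed CPM or log2 values, and its conversion for linear values was used instead: log2(value + 1), with 24.49 (the median column total divided by 1e6) standing for 1 CPM. Genes above it in at least 4 of 16 libraries were kept, 14189 of 16091. Differences on this scale understate the change of low genes. Fits used limma 3.58.1 in R 4.3.3 with a variance trend, two-sided, 5 residual degrees of freedom and a threshold of adjusted p under 0.05. They were also run on simulated data, but the size of slope that the antibody libraries could detect is not reported here.

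The members and the 25 gene lists were chosen with earlier results of these data known. Named genes were all clock genes, the 10 largest differences each way without overlap with a mean of at least 100 normalized counts and a symbol that is no clone name, and up to 4 of each other list. A few genes that this rule takes in are not reported here. The alternatives tried are in the closing section. Coordinates and exon overlaps are from GENCODE vM21 (GRCm38); among 122 named genes 12 have exons that overlap another examined gene on the other strand.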

Additional observations from a re-analysis of the deposited data

Results flagged for a closer look

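The index and each clock gene were checked for a library far from the other 3 of its group of 4, by the gap to the nearest library divided by the group's range, against Dixon's 95% critical value. Of 84 groups checked 6 passed, and chance passes about 1 in 20. Npas2 was 154 normalized counts in untreated high-fat replicate 3 against 88 to 94 in its group. Rora was 2294 in untreated control diet replicate 3 against 1177 to 1318. Among the antibody libraries, Rorb was 34 in high-fat replicate 3 against 57 to 61, and Hlf was 1675 in control diet replicate 4 against 1329 to 1376. Per1 passed in both antibody groups, with 1652 in control diet replicate 1 against 2929 to 3217 and 2903 in high-fat replicate 4 against 1490 to 1612.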

How the results depend on the processing

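In the untreated libraries the median of the clock repressors, which hold neither Dbp nor Arntl, was 0.41 and lay between 0.36 and 0.48 under the alternatives run. Those of the activators and PAR bZIP factors include a gene of the index, so their sign under the alternatives shows nothing. Counts of genes without overlap and at least 2-fold were 18 higher and 5 lower. They were 31 and 15 with no filter on low values, 18 to 67 and 7 to 149 when 1 library was left out, and 60 and 175 without both control diet replicate 3 and high-fat replicate 2, an alternative chosen after seeing the data. The count of such lower genes was 2 with the index as a number and 12 with the muscle list mean as a covariate. Counts without overlap were 341 to 798 higher and 323 to 1273 lower when 1 library was left out, and 1073 and 1192 without both libraries. Fewer libraries make separation easier by construction, and the cause of the other shifts was not tested.

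Among the antibody libraries 0 genes passed under each of the 7 other settings and with each library left out, except high-fat replicate 3. Without that library 2 genes with a positive and 9 with a negative slope passed (0 to 2 and 0 to 9 over the libraries left out). The smallest adjusted p was then 0.00178 (limma), and the 11 include Arntl, which is part of the index. The 388 genes at an unadjusted p under 0.05 changed with the setting. With the muscle list mean as a covariate there were 1197, of which 179 were among the 388. With the index from Nr1d1 and Npas2 there were 729, of which 17 were among the 388. Without high-fat replicate 3 there were 1371, of which 242 were among the 388. The median slope of the PAR bZIP factors, Dbp included, was -0.10 with an index from Nr1d1 and Npas2, against 0.09. That of the repressors was 0.04, turning to -0.05 with the replicate block and to -0.06 without control diet antibody replicate 1; the cause was not tested. Of 600 slopes of named genes recomputed there, 68 took the other sign without passing the threshold. Whether the replicate numbers pair the samples is not known. Deviations of same-numbered control and high-fat libraries correlated between -0.54 and 0.49 without and between -0.28 and 0.24 with antibody. Of the 8 control diet libraries 2 matched their own number best. Same-numbered libraries with and without antibody were not compared, so a pairing of that kind was not tested. With the replicate block the untreated counts were again 18 and 5, the same 23 genes. That outcome was fixed in advance and says nothing of a pairing. Each replicate number holds a high-index and a low-index untreated library, so the block cannot change a difference. In the antibody libraries 0 genes passed with the block. There were 386 at an unadjusted p under 0.05 (limma) against 388, of which 103 genes were shared. Depth before normalization is unknown, so its limits could not be given.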
